A study of Mus musculus with 6 samples.

Results

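Open chromatin regions that lie away from gene ends and close to one another were examined in mouse vascular smooth muscle cells. Peaks of 6 libraries were merged into 85174 regions wherever they overlapped by 1 base or more. Of these, 20742 had a peak from all 6 libraries, and 13738 of those overlapped no window of 1000 bases to either side of a RefSeq protein-coding gene's start or end. Neighbours among the 13738 with a gap of at most 12.5 kb were joined into chains, and the chains with 4 or more regions were kept. This left 565 regions in 126 chains, which were 0.663% of all merged regions and 4.11% of the distal regions present in every library. The members were chosen by the presence of peaks in all 6 lists and by their positions, so the counts, spans and gaps of the chains are given as a description, with no test.

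The libraries came from ATAC-seq, an assay in which the transposase Tn5 cuts and tags accessible DNA in nuclei. Primary mouse vascular smooth muscle cells (VSMCs) from a commercial supplier were transfected with small interfering RNA for 24 h, and 50000 cells entered each reaction with Tn5 for 30 min. There were 3 knockdown libraries, each with its own siRNA against Arid3a (si-Arid3a#1, si-Arid3a#2 and si-Arid3a#3), and 3 negative control libraries. ARID3A protein binds AT-rich DNA through its ARID domain. The labels also describe an in vitro aneurysm model with angiotensin II (Ang II), without saying which libraries received it, and leave unsaid whether the libraries of 1 group were grown as separate cultures. The spread behind each p-value may therefore be technical. Each siRNA has 1 library, so among knockdown libraries differences between siRNAs cannot be told apart from differences between replicates.

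Distal open regions often hold enhancers, short stretches of DNA where transcription factors bind and raise the transcription of a gene that can lie far away. Several enhancers can stand close together along the chromosome, and such groups are known near genes that define a cell type. Smooth muscle cells of the vessel wall make contractile proteins and matrix, and can shift between a contractile and a matrix-producing state. Peak lists hold no histone marks and no contacts, so a chain is called here by the protein-coding gene nearest to more of its regions than any other, ties going to the smaller median distance. In 4 chains, among them those called by Vegfa and Ccn1, that gene was nearest to 2 of the 4 regions. The call is a statement of position alone.

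Sequences near the chains are shown first, for microRNA genes that flank them and for transcript starts that lie inside member regions. MicroRNAs are short RNAs that pair with messenger RNAs through their seed, bases 2 to 8, which is in capitals below. The RefSeq tables (GRCm38.p6) placed 18 microRNA genes inside a chain's span or within 25 kb of it, and 1 of them, Mir1953, lay inside. Those of a pair of chains are printed, and each belongs to a cluster. Other microRNA genes also lay together near a chain and are not printed. They were Mir143 with Mir145a near the chain called by Il17b, and Mir219a-2 with Mir219b near that called by Cercam. Mir29b-1 and Mir29a lay 12.6 and 13.0 kb from the chain called by Klf14 on chromosome 6, and their products, known to target collagen messenger RNAs, share the seed AGCACCA. Mir23a, Mir27a and Mir24-2 lay 4.29, 4.44 and 4.58 kb from the chain called by Zswim4 on chromosome 8, and Mir181c and Mir181d, which share the seed ACAUUCA, lay 12.8 and 13.0 kb from its other end.
miR-29a-3p: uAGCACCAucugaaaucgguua
miR-29b-3p: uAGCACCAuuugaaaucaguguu
miR-23a-3p: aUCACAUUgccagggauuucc
miR-27a-3p: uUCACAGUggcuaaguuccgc
miR-24-3p: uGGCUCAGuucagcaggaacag
miR-181c-5p: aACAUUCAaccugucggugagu
miR-181d-5p: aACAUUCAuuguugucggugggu

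The rule for distal regions used only the outermost start and end of each protein-coding gene, so a member can still lie at a start inside a gene or at the start of a non-coding RNA. RefSeq promoter windows, which run from 250 bases before a transcript start to 50 bases after it, touched 31 of the 565 members, and 23 windows lay wholly inside a member. Of these 23, 11 belonged to protein-coding genes, among them Ptpn1, Baiap2, Ralgds, Cercam and Rusc2, so the word distal does not hold for every member. The motif TGANTCA, bound by the AP-1 factors of the Fos and Jun families, was found on either strand in 5 of the 23 windows (21.7%), against 7.81% of all 32851 windows of the same length. All 5 belonged to non-coding RNA genes, and none of the 11 protein-coding windows held the motif. The motif GGAATG, bound by TEAD factors and also searched as CATTCC on the other strand, was in 2 of the 23 (8.70%), against 14.7% of all windows. ATTAAA and its reverse complement, searched as an AT-rich word, was in 0 of the 23, against 13.9% of all, and the CArG box of serum response factor was in 0, against 1.63%. The windows inside members had a median GC content of 61.7%, against 52.7% for all windows, and some overlap each other, so these shares are a description of few sequences. A CArG box can contain ATTAAA; no other motif of the 4 contains another. The motifs were not read elsewhere in the members. Shown are the AP-1 windows in the chains called by Cebpb, Irf2bpl and Hmga2, with the AP-1 matches in capitals, the Prkag2 window with its TEAD match in capitals, and the Ptpn1 window, in which none of the 4 motifs was found. Each is printed on the strand of its transcript.
Gm32287, chr2:167777365-167777664, minus strand: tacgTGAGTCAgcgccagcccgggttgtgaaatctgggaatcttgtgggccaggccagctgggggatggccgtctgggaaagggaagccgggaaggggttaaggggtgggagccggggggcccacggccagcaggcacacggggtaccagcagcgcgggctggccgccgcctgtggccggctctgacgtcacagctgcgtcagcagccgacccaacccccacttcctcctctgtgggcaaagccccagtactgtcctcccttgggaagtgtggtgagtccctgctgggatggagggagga
Gm40491, chr12:86833714-86834013, minus strand: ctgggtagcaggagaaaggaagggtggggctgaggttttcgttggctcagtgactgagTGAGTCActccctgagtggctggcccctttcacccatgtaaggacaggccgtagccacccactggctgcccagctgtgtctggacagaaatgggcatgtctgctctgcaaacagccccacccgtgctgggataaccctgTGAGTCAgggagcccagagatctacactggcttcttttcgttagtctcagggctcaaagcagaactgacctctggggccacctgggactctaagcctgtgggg
4930471E19Rik, chr10:120636058-120636357, minus strand: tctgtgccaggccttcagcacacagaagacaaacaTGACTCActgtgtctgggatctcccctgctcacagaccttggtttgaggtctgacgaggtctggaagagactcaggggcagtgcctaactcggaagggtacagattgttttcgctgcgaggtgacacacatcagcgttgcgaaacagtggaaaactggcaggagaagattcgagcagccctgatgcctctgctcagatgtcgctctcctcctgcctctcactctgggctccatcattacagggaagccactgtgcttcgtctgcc
Prkag2, chr5:24995704-24996003, minus strand: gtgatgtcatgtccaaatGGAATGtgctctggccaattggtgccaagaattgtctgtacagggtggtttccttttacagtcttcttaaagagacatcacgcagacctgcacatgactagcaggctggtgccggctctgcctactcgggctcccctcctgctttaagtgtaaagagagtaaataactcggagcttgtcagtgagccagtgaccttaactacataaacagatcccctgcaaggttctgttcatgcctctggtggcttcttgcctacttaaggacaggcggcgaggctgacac
Ptpn1, chr2:167932077-167932376, plus strand: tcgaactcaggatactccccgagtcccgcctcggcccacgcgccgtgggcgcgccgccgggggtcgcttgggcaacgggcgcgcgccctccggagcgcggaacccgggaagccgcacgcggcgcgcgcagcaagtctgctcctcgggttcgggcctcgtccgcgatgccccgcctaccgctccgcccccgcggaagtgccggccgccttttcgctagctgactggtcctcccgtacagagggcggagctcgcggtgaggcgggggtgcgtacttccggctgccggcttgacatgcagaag

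Chains were short and mostly at the lower limit of 4 regions. Of the 126 chains, 86 had 4 regions, 24 had 5, 13 had 6, 1 had 7 and 2 had 8. Their spans ran from 10.3 to 54.5 kb with a median of 25.2 kb, and summed to 3.30 Mb, of which the members covered 377 kb. Within a chain the members covered a median of 11.5% of the span (5.38 to 27.8%), so most of each span lay between the regions. The 439 gaps between neighbours had a median of 6704 bases, from 26 to 12382 bases, with 29 under 1000 bases and 95 over 10000 bases. Members had a median merged width of 613 bases, against 599 bases for the 13173 other distal regions, those in chains of 1 to 3.

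Regions and chains lay close to both limits of the rule. The nearest gaps between distal regions on either side of the limit were 12494 and 12509 bases. Just below the limit on number were 274 chains of 3 regions, with a median span of 14.9 kb, against 22.0 kb for the 86 chains of 4. At a gap of at most 5000 bases a single chain was left, 4 regions inside Prkag2, which encodes a regulatory subunit of the energy sensor AMP-activated kinase. At 25000 bases there were 402 chains with 1988 regions.

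**Figure D1:**
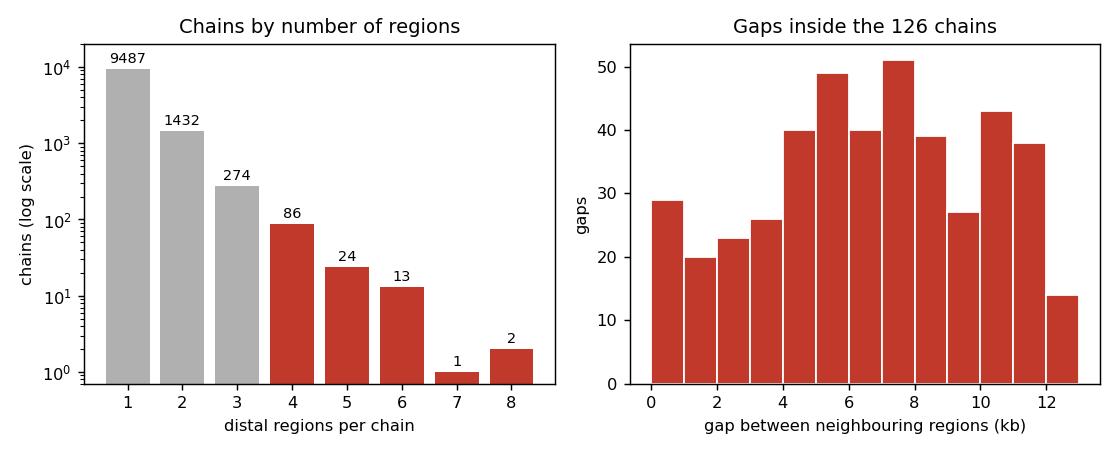
Left, the number of chains (log scale) by the number of distal regions they hold, with the 126 chains of 4 or more regions in red and shorter chains in grey. Right, the 439 gaps between neighbouring regions inside the 126 chains, in kb. Numbers of chains drop at each added region up to 7, and the gaps spread over the whole allowed range with a median of 6704 bases.

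Chains were unevenly placed along the genome. Chromosome 2 held 19, chromosomes 15 and 17 held 12 each and chromosome 6 held 11, while chromosomes 7, 13 and 16 held 1 each and the X chromosome 0. Members made up 8.93% of the distal regions of chromosome 19, 7.73% on chromosome 17 and 7.65% on chromosome 2, against 0.704% on chromosome 7 and 0.710% on chromosome 13. Of the 565 members, 280 (49.6%) had their midpoint in a protein-coding gene body, against 7069 of the 13173 other distal regions (53.7%). In 50 chains every region lay in a gene body, in 55 none did and in 21 some did. All regions of 106 chains had the same nearest gene. In 9 chains, among them those called by Klf14, Vegfa, Hmga2, Trib1 and Trib2, no region was within 100 kb of a gene body. The genes called for chains inside bodies had a median length of 119 kb, against 17.2 kb for all 21887 protein-coding genes. Every span was at least 10.3 kb long. The rule therefore favours long genes for chains inside bodies, and the lengths are a description.

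The chains were called by 125 different genes, Tomm20 being called for a pair of chains. An end of the called gene was itself open in all 6 libraries for 52 of the 125 (41.6%), against 7979 of the 21887 protein-coding genes (36.5%).

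The longest chains lay in and near genes of varied function. Zcchc24, which encodes a zinc finger protein, had 8 regions over 54.5 kb on chromosome 14 (25735218 to 25789711, mm10), 4 of them in its body and the others up to 20.4 kb away. Thbs2, which encodes the matricellular protein thrombospondin 2, had 8 regions over 53.9 kb on chromosome 17 (14608915 to 14662839), all outside its body at 2.91 to 56.4 kb. Arhgap23, which encodes a GTPase-activating protein, had 7 regions over 49.8 kb on chromosome 11, all in its body. Among the 13 chains of 6 regions, those of Sh3pxd2a (an adaptor of invadopodia), Galnt2 (a glycosyltransferase), Col4a2 (a basement membrane collagen chain) and Dlgap1 (a scaffold protein) lay wholly in their gene bodies. The chains called by Socs3 (an inhibitor of cytokine signalling) and Bhlhe40 (a transcription factor) lay beside the genes, starting 2.36 and 1.66 kb away. The chain called by Cebpb, a transcription factor gene, lay 50.4 to 99.4 kb away, and that called by Parp11 at a median of 101 kb. Myh9, which encodes a heavy chain of nonmuscle myosin, had 3 of 6 regions in its body, and Rxra, a nuclear receptor gene, 5 of 6. The chains called by Ip6k3 and Hs1bp3 had 6 regions over 49.1 and 35.9 kb, and those called by Tnxb, Ptpn1 and Dot1l had 5 each. The most regions per length among the chains of 6 or more were in those of Parp11, Socs3, Sh3pxd2a, Klf14 and Hs1bp3, which spanned 29.8, 32.3, 32.7, 32.8 and 35.9 kb.

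**Figure D2:**
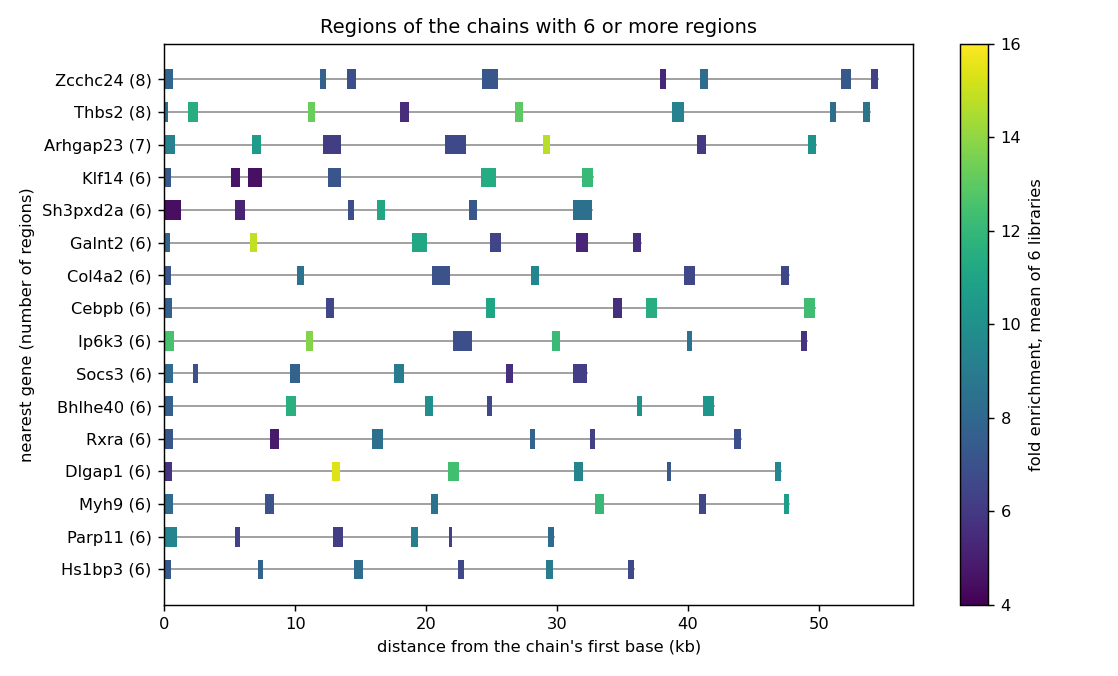
The 16 chains with 6 or more regions, 1 per line, drawn to scale from the chain's first base (kb). Each block is 1 merged region, coloured by its fold enrichment averaged over the 6 libraries, and the number of regions is in brackets. Spans run from 29.8 kb (Parp11) to 54.5 kb (Zcchc24), and regions of unlike fold stand side by side in them.

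Chains lay at a few of the genes listed for vascular function. Over 21 lists of vascular, matrix, signalling and cell marker genes, 9 of 315 genes (2.86%) were called for or overlapped by a chain, against 130 of all 21887 protein-coding genes (0.594%). The lists were chosen with earlier results of these data known, so the shares are a description. They also depend on how many genes have distal regions nearby. Of all 21887 genes, 6323 were nearest to at least 1 of the 13738 distal regions. The same held for 23 of 24 collagen and matrix genes and 21 of 30 mesenchymal factors, but for 2 of 8 leukocyte markers. The shares were not adjusted for this. The 9 were Mrtfa (a coactivator of serum response factor), Zeb2 (a mesenchymal transcription factor), Fosb (an AP-1 factor), Ccn1 (a matricellular protein), Smad3 (a mediator of TGF-beta signalling), Col4a2, Thbs2, Vegfa (an angiogenic growth factor) and the housekeeping gene Ywhaz. Of 20 contractile genes, 16 elastic fibre genes, 18 matrix proteases, 16 adhesion and integrin genes, 20 inflammation genes, 18 angiotensin and oxidant genes and 15 genes of the ARID family, 0 had a chain, to be read against the 0.594% of all genes. These counts cover the listed genes only. Chains were also called by the integrin gene Itgb6 and the cytokine genes Csf2, Il34 and Il17b, which are on none of the lists. An end of the gene was open in all 6 libraries for 9 of the 20 contractile genes, 5 of 18 muscle regulators, 6 of 30 mesenchymal factors and 2 of 16 adhesion and integrin genes, against 36.5% of all protein-coding genes. The same held for 0 of 8 endothelial, 0 of 8 epithelial, 1 of 8 leukocyte, 1 of 8 chondro-osteogenic, 2 of 8 neural and Schwann and 2 of 8 fibroblast markers, and none of these 48 genes had a chain.

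Non-coding genes overlapped many chains. In 55 of the 126 chains the span overlapped at least 1 long non-coding RNA (lncRNA) gene, 75 such genes in all. The share was not computed for other distal regions or for other spans of like length, so whether it is particular to the chains is not known. The Klf14 chain, 117 to 149 kb from that gene, had 2 of its 6 regions in the body of Lncpint. The Cebpb chain overlapped 4 lncRNA genes, and its region 5 held a transcript start of Gm32287. These and the following chain were singled out after their values were seen. The chain called by Il17b on chromosome 18 (61664252 to 61674554), was the shortest, with 4 regions in 10.3 kb, 2 of them in the body of Carmn, a smooth muscle lncRNA, and it lay 15.0 and 16.4 kb from Mir143 and Mir145a, which are known to support the contractile state.

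Members carried more sequencing tags than other distal regions but stood over a higher local background, and their fold enrichment was lower. The peak caller MACS2 gives each peak a fold enrichment, which is the tags at its summit plus 1 over the expected local background plus 1, and p and q values for it; these are the authors' values and describe peaks within a list. Tags and background were recovered from the fold and p of each peak. The median peak in members had 24, 25 and 17 tags in knockdown libraries 1, 2 and 3 and 24, 14 and 24 tags in control libraries 1, 2 and 3. Other distal regions had 18, 18 and 12 tags in the knockdown libraries and 18, 10 and 18 in the control libraries. Members were higher in 6 of 6 libraries, by 5.67 ± 1.03 tags (SD of the difference, n = 6; exact two-sided sign-flip permutation test over libraries, p = 0.031, the smallest that 6 libraries allow, adjusted p = 0.031 over 5 measures). Knockdown library 3 and control library 2 were low for members and for other regions alike, and they were also the shallowest, at an estimated 1.19 and 0.953 M tags, against 1.89 to 2.01 M in the other 4.

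The local background also differed in every library. In multiples of each library's most frequent lowest background, the median over members averaged 10.4 ± 0.171, against 5.29 ± 0.103 over other distal regions (SD, n = 6 libraries each). The ratio of members to others was 1.95 to 2.00 in every library (exact sign-flip permutation p = 0.031, adjusted p = 0.031). MACS2 can read its background from windows wider than a peak, in which a neighbouring peak's tags count, and the part of such tags in this difference was not tested. A peak is also called against its local background, so over a higher background more tags are needed for a region to enter a list. The part of this filter in the higher tags of members was not tested.

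The fold of the median member was 8.61, 8.69 and 7.35 in knockdown libraries 1 to 3 and 8.64, 6.67 and 8.22 in control libraries 1 to 3. For other distal regions it was 9.45, 9.55 and 7.69 in the knockdown libraries and 9.34, 6.84 and 9.28 in the control libraries. The fold was thus lower in members in 6 of 6 libraries, by an average of 0.663 ± 0.340 (exact sign-flip permutation p = 0.031, adjusted p = 0.031). In contrast, the −log10 q of the median member was higher, by 1.15 ± 0.328, and its peak was wider, by 21.2 ± 9.58 bases, each in 6 of 6 libraries with the same exact permutation p. The q of a peak depends on its tags as well as on its fold. The fold is taken over the local background, and members were chosen for near neighbours, whose tags can count in that background. The part of this choice in the lower fold was not tested.

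**Figure D3:**
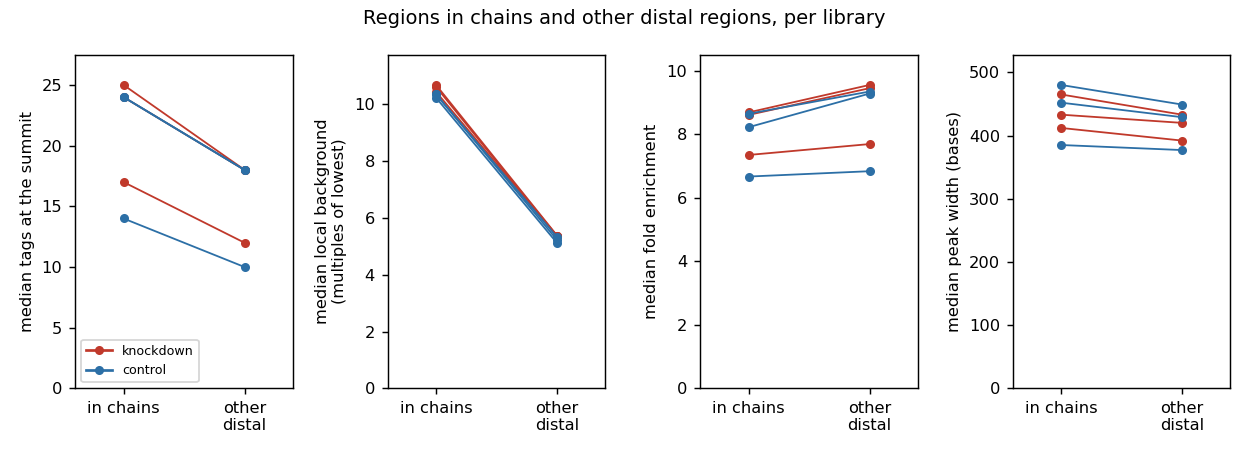
Medians per library over peaks in chain members (left of each panel) and in other distal regions present in all 6 libraries (right), for tags at the summit, local background in multiples of the library's lowest, fold enrichment and peak width in bases. Each line is 1 library, red for knockdown and blue for control. Tags, background and width are higher in members and fold is lower in members in 6 of 6 libraries.

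Chains differed widely in background. The median over the 4 regions of the Zswim4 chain, beside the miR-23a cluster, was 40.1 times the lowest level, and the 5 regions in Plec, which encodes the cytoskeletal linker plectin, reached 53.9. At the low end was the chain called by Pum3, at 3.40. The 4 Zswim4 regions had mean folds of 8.61, 5.32, 4.17 and 3.64, the last of which was the lowest of all 565 members. That region still held 25, 32 and 17 tags in knockdown libraries 1 to 3 and 31, 16 and 25 tags in control libraries 1 to 3. Across members the mean fold over 6 libraries had a median of 8.10 and reached 17.7 in a region 329 kb from Trib2, a pseudokinase gene. The most tags, a mean of 78.7, were in a region inside Cyb5r3, which encodes a reductase of cytochrome b5.

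Regions within 1 chain were not equally strong. The ratio of the highest to the lowest mean fold had a median of 1.73 over the 126 chains (1.07 to 3.11) and exceeded 1.5 in 92. In the Thbs2 chain its strongest and weakest regions by mean fold were neighbours, and region 3 had folds of 14.0, 14.9 and 11.0 in knockdown libraries 1 to 3 and 14.4, 8.20 and 17.0 in control libraries 1 to 3. Region 4, the next along, had 6.47, 5.96 and 5.08 in the knockdown libraries and 6.27, 3.88 and 5.39 in the control libraries. Region 3 was higher than region 4 in every library, and the groups overlapped in both regions.

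Strong and weak regions of 2 further chains are set side by side here, chosen for their folds, so that their order is a description. In the Cebpb chain region 5, at the start of Gm32287, had folds of 14.2, 10.6 and 11.6 in the knockdown libraries and 11.4, 9.09 and 12.0 in the control libraries. Region 4 had 6.28, 6.11 and 5.87 in the knockdown libraries and 4.57, 6.50 and 4.57 in the control libraries, below region 5 in each. In the Klf14 chain region 6 had folds of 13.0, 12.8 and 12.9 in the knockdown libraries and 13.1, 11.0 and 9.58 in the control libraries. Region 3 had 4.52, 5.59 and 5.00 in the knockdown libraries and 3.75, 4.06 and 3.98 in the control libraries. Region 6 was higher than region 3 in every library, and at region 3 the knockdown libraries were all above the control libraries. The region ranked first by −log10 q was the same in all 6 libraries in 29 of the 126 chains (23.0%), among them Sh3pxd2a, Galnt2, Cebpb, Socs3, Vegfa, Myc, Prkag2 and Il17b. It was the same in the 3 knockdown libraries in 48 chains and in the 3 control libraries in 59.

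In 30 chains 1 region led in all libraries of each group, and in 1 of these 30, Rxra, it was not the same region in both groups. Region 3 led in the knockdown libraries, with −log10 q of 19.3, 17.0 and 11.2, and had 2.93, 4.33 and 12.1 in the control libraries. Region 4 led in the control libraries, with 11.8, 13.8 and 9.03 in the knockdown libraries and 11.8, 6.28 and 13.5 in the control libraries. In both regions the groups overlapped, and −log10 q depends on a library's depth.

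**Figure D4:**
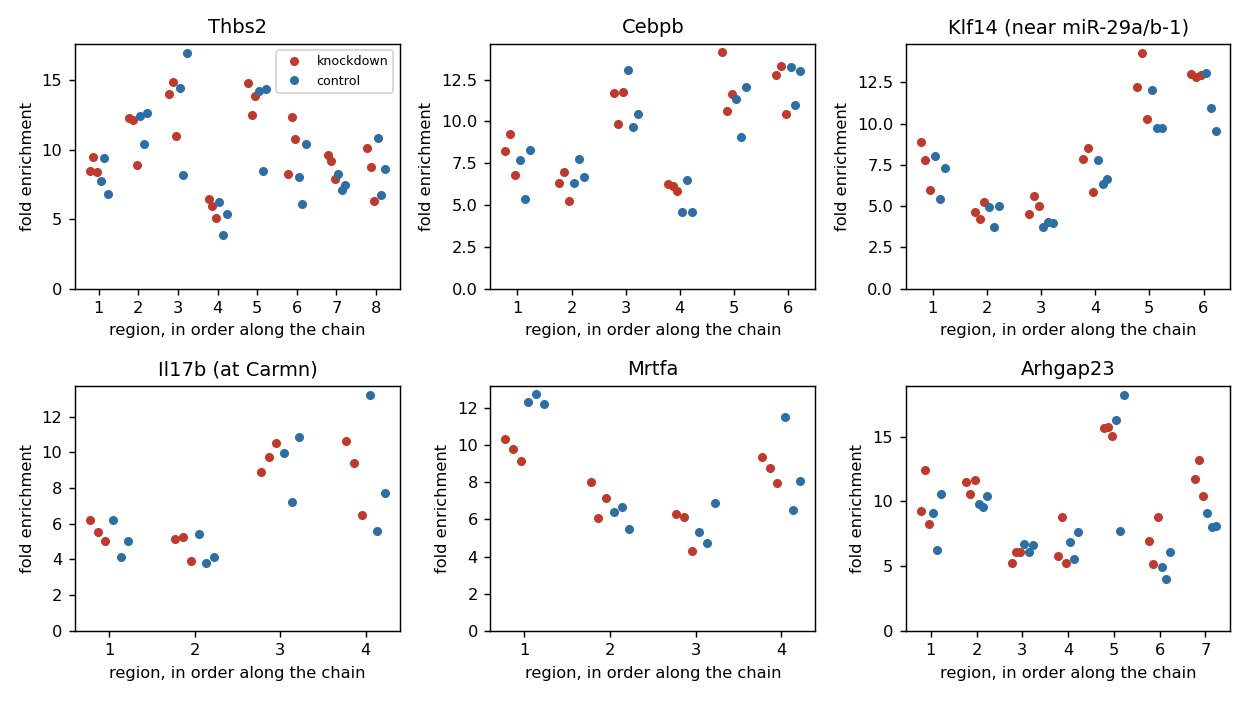
Fold enrichment in each library (red, knockdown libraries 1 to 3; blue, control libraries 1 to 3) at every region of 6 chains, numbered in order along the chain. Knockdown points lie above all control points at region 3 of Klf14 and regions 2 and 7 of Arhgap23, and below them at region 1 of Mrtfa; the groups overlap at the other regions.

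Knockdown and control libraries were compared on 5 numbers per library, none of which reached the test's threshold. With 3 libraries against 3 the exact permutation test over the 20 relabellings cannot give a two-sided p below 0.1. Chains built from a library's own list alone numbered 1483, 1566 and 733 in knockdown libraries 1 to 3 and 1477, 361 and 1525 in control libraries 1 to 3 (1261 ± 459 against 1121 ± 659, SD, n = 3 each; exact permutation p = 0.6, adjusted p = 1). Knockdown library 3 and control library 2, with the shortest lists of 41629 and 33248 peaks against 50543 to 52091 in the other 4, gave the fewest chains in their groups. Without control library 2 the difference, knockdown minus control, was -240.3 chains, against 139.7 with all libraries.

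The groups also overlapped on the other 4 numbers. The share of peaks in the spans and the width below followed list length too. Control library 2, with the shortest list, had 1.82% of its peaks in the spans and a median width of 385 bases. Control library 3, with the longest, had 1.26% and 480 bases. The fold ratio below was also highest in control library 2, at 0.975, and lowest in control library 3, at 0.886. The share of a library's peaks inside the chains' spans was 1.37 ± 0.107% in knockdown libraries and 1.46 ± 0.313% in control libraries (SD, n = 3 each; exact permutation p = 0.9, adjusted p = 1). Median peak width in members was 437 ± 26.7 bases in knockdown libraries and 439 ± 48.8 bases in control libraries (SD, n = 3 each; exact permutation p = 1, adjusted p = 1). The ratio of members' median fold to that of other distal regions was 0.925 ± 0.0261 in knockdown libraries and 0.929 ± 0.0449 in control libraries (SD, n = 3 each; exact permutation p = 1, adjusted p = 1). Members in the strongest 10% of a library's own peaks made up 28.1, 29.4 and 26.0% of the 565 in knockdown libraries 1 to 3 and 29.2, 18.8 and 28.0% in control libraries 1 to 3 (exact permutation p = 0.6, adjusted p = 1). By that share control library 2 was the lowest of the 6, and knockdown library 3, with the next shortest list, was the next lowest.

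**Figure D5:**
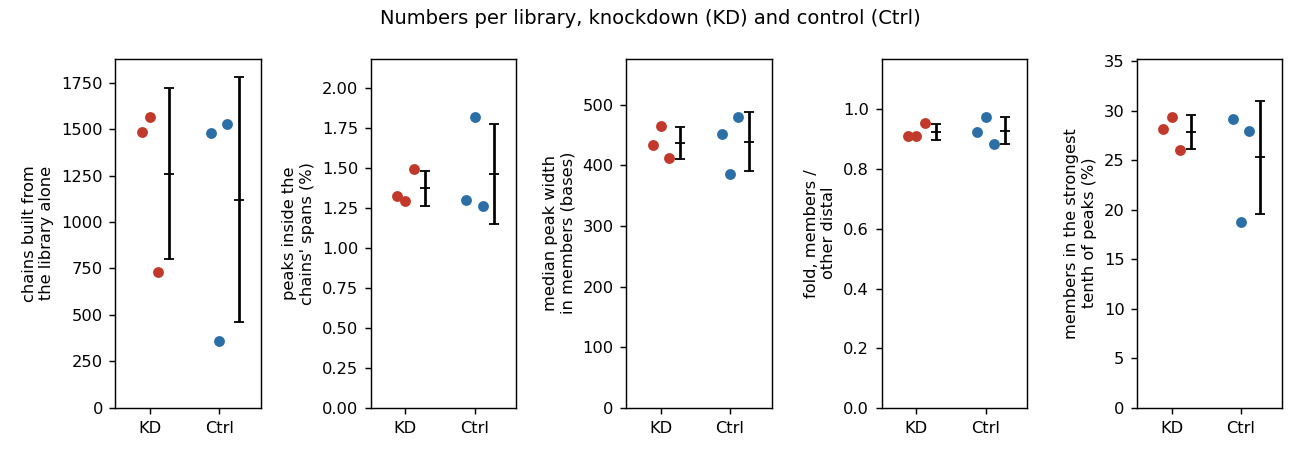
The 5 numbers compared between knockdown (KD, red) and control (Ctrl, blue), with 1 point per library and the mean with its SD (n = 3) in black. Knockdown and control points overlap in every panel, and control library 2 stands apart from the other 2 controls in chains per library, in the share of peaks inside the spans and in the share among the strongest 10%.

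Presence was part of the rule, so every member was open in both groups. Requiring a peak from the 3 knockdown libraries alone gave 332 chains with 1552 regions, and from the 3 control libraries alone 191 chains with 867 regions. The control group holds the shortest list, that of control library 2, which alone gave 361 chains, and this gap between the groups was not tested. Inside the 126 spans lay 159 merged regions that were not members, 156 of them present in fewer than 6 libraries. Of these 156, 0 had a peak from all 3 knockdown libraries and no control library, and 0 the reverse, which allows a share of up to 1.92% by counting error alone. Over all merged regions these classes held 0.432% and 0.277%, and among the 64432 regions not present in all 6 libraries 0.571% and 0.366%. The near misses were 5 regions with 2 of 3 knockdown libraries and 0 control libraries, and 7 with the reverse. With presence asked only of the 4 deeper libraries, which gives 431 chains, knockdown-only and control-only regions in the spans numbered 18 and 14. These classes are looser, since they ask for a peak from both deeper libraries of 1 group and from neither of the other. Their shares over all merged regions were not computed, so the counts have no background beside them.

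The fold of all 3 knockdown libraries exceeded that of all 3 control libraries in 31 of the 565 members (5.49%), against 4.24% of the 13738 distal regions in all 6 libraries. It lay below in 8 members (1.42%), against 1.46%. Both shares were near the background, and the shallowest library of each group has lower folds. Among the 31 were region 3 of the Klf14 chain, given above, and region 7 of Arhgap23. Region 7 of Arhgap23 had folds of 11.8, 13.2 and 10.4 in knockdown libraries 1 to 3 and 9.09, 8.04 and 8.07 in control libraries 1 to 3. Among the 8 was region 1 of Mrtfa, with 10.4, 9.80 and 9.13 in the knockdown libraries and 12.3, 12.8 and 12.2 in the control libraries. Region 2 of Col4a2, also among the 8, had 8.24, 7.62 and 7.83 in the knockdown libraries and 9.43, 8.59 and 9.23 in the control libraries. No single region can pass an exact test with 3 libraries against 3, and these regions were chosen after their values were seen.

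In the other chains at genes of the lists the groups overlapped at every region except region 3 of Fosb, where folds were 9.27, 7.89 and 6.13 in the knockdown libraries and 6.11, 4.97 and 5.94 in the control libraries. The Thbs2 chain, described above, had no such region. At Smad3, whose 4 regions lay in its body, mean folds over 6 libraries ran from 7.54 to 8.75, and at Zeb2, 6.26 to 22.2 kb away, from 7.46 to 9.88. At Fosb, with 1 of 4 regions in its body, they ran from 5.91 to 6.97, and at Ywhaz, 27.3 to 54.1 kb away, from 6.16 to 9.03. The chain called by Ccn1, which also neighbours Ddah1, ran from 8.21 to 13.3. That called by Vegfa, 123 to 140 kb from the nearest gene bodies (Vegfa and 1600014C23Rik), ran from 6.99 to 12.4. Outside the lists, the 4 regions called by Myc, a transcription factor gene, lay 38.3 to 59.0 kb away and ran from 6.27 to 13.8. Of these 4 regions, 3 lay in the body of the lncRNA gene Pvt1.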

How the data were processed

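ATAC-seq was read from 6 deposited narrowPeak lists, 3 of Arid3a knockdown and 3 of negative control libraries. Per the submitters' processing notes, Bowtie2, Picard and MACS2 were used with mm10; the sources used here give no versions or parameters. In each deposited list the authors give a score, a fold enrichment (ratio over local background), −log10 p-values and −log10 q-values and a summit position. The lists hold peaks with no counts or coverage. Tags and local background were recovered by finding the whole number of tags (1 to 600) whose Poisson p matched the authors' fold and −log10 p within 0.001, which succeeded for at least 99.996% of peaks in each list. Depth was estimated from the lowest background and an assumed genome size of 1870000000 bases, and limits the precision of low peaks.

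Peaks were merged, chained and assigned to genes with Python 3.11.15, numpy 2.4.6, scipy 1.17.1 and pandas 2.3.3; figures used matplotlib 3.10.9. Gene positions came from RefSeq (GRCm38.p6). Chains named are the 20 with the most regions, the 5 longest, the 5 most dense of 6 or more regions and those of listed genes, at most 4 per list. One chain that this rule names is not reported here. Other chains in the text (among them Zswim4, Plec, Pum3, Cyb5r3, Trib2, Myc, Prkag2, Il17b, Irf2bpl and Hmga2) were chosen after their values were seen. Members against other distal regions were compared within libraries by an exact sign-flip test (64 patterns), and knockdown against control by an exact permutation test over 20 relabellings, each adjusted by Benjamini-Hochberg over 5 measures. The test code was checked on simulated data. Members, lists and tests were chosen with earlier results of these data known. Alternatives covered the gap, the number of regions, the gene-end window, the peak threshold, the overlap, the list length and each library left out. A gene-end window of 500 bases and leaving out both shallow libraries were added after seeing the data. No sequence of the regions themselves was read, apart from RefSeq promoter windows.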

Additional observations from a re-analysis of the deposited data

How the results depend on the processing

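The number of chains, 126 with 565 regions, followed the rule. It was 1 with 4 regions at a gap of 5000 bases, 402 with 1988 at 25000 bases, 400 with 1387 for chains of 3 regions and 16 with 101 for 6. It was 46 with 191 for peaks of −log10 q of 5 or more, 39 with 165 when a library's peaks had to cover 50% of a region, and 72 with 313 for lists of equal length. Leaving out 1 library gave 131 to 256 chains with 582 to 1169 regions, the highest without control library 2, and leaving out both shallow libraries gave 431 with 2020. A gene-end window of 2500 bases kept 496 of the 565 members, and that of 500 bases all of them. The gene nearest by its end to the chain's midpoint was the called gene in 119 of 126 chains.

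Within libraries, members differed from other distal regions in the same direction for fold, tags and background under every alternative run. With 1 library left out the smallest possible exact p is 0.0625, and the differences ranged from -0.636 to -0.515 for fold, 0.988 to 1.47 for −log10 q, 18.2 to 23.1 bases for width, 5.2 to 6.0 tags and 4.83 to 5.16 for background. Without both shallow libraries, where the smallest exact p is 0.125, they were -0.524, 1.18, 9.63 bases, 5.5 tags and 4.52. For chains of 6 regions they were -0.947, 0.608, 24.8 bases, 5.83 tags and 5.26, with adjusted exact permutation p of 0.0521 to 0.0938. At a gap of 5000 bases, with 4 regions left, they were -0.144 for fold, 2.08 for tags and 5.18 for background, and reversed to -0.493 for −log10 q and -5.33 bases for width.

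Between knockdown and control no number could pass the threshold of 0.05 under any alternative. The smallest exact permutation p is 0.1 with all libraries and no lower with fewer, so the lack of a pass carries no information. Directions were not stable. Leaving out 1 library gave differences, knockdown minus control, of -240.3 to 404 chains per library, with -13 without knockdown library 2, and -0.191 to 0.181 percentage points for the share of peaks in the spans. It gave -28 to 19.5 bases for width, -0.0257 to 0.0136 for the fold ratio and -0.784 to 4.66 percentage points for the strongest 10%, where -0.784 was without control library 2. The share of peaks in the spans also reversed to 0.0130 for lists of equal length and 0.102 without both shallow libraries. Width reversed to 4 for chains of 6 regions and 2.67 for 50% cover. The fold ratio reversed to 0.0635 at a gap of 5000 bases, 0.0181 for chains of 6 regions, 0.00184 for a window of 2500 bases, 0.00757 for −log10 q of 5 or more, 0.00558 for equal lists and 0.00433 without both shallow libraries. The cause was not tested. Knockdown-only regions in the spans, 0 as reported, numbered 6 at a gap of 25000 bases, 2 for chains of 3 regions, 18 without both shallow libraries and 0 to 5 without 1 library. Control-only regions, 0 as reported, numbered 1, 1, 14 and 0 to 7 under the same settings. With libraries left out, both classes ask for fewer libraries and are looser. No share over all merged regions was computed under these settings, so the counts are a description.

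The labels give knockdown and control libraries the same numbers 1 to 3. Deviations of same-numbered libraries from their group means correlated at 0.0414, -0.0542 and -0.0521, and not every library correlated best with its own number. The highest correlation, 0.101, joined knockdown library 3 and control library 2, the shallowest libraries. These values cannot tell whether same-numbered libraries shared a culture or a batch. With the replicate block the differences stayed at 139.7 chains, -0.0881 percentage points, -2.33 bases, -0.00357 and 2.54 percentage points, with exact sign-flip permutation p from 0.75 to 1, where 0.25 is the smallest possible.

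Depth limits membership as well: a region is a member only if the shallowest library, control library 2 with 33248 peaks, also has a peak there.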
